A study of Mus musculus with 12 samples.

Results

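Erythroid regulators and red cell membrane proteins were examined as 8 genes: Gata1, Klf1, Tal1, Nfe2, Epor, Slc4a1, Ank1 and Rhag. They were picked by symbol out of 30743 gene rows, and all 8 have a row. The RNA came from whole livers of male C57BL/6J fetuses at 15 ± 0.5 dpc, 6 from dams on the control diet (13.5 kcal% fat) and 6 from dams on high-fat diet (HFD, 60 kcal% fat), each fed for 12 to 14 weeks. PolyA-selected libraries were sequenced, and 1 mean per gene over all 12 livers is used here, so control and HFD livers are not separated and no value has an SD or a test. The labels do not say which fetuses shared a dam.

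The fetal liver is the main site of definitive red cell production at this age, and a whole liver also holds hepatocytes, other blood cells and stroma. GATA1 is the zinc finger factor on which erythroid maturation depends, TAL1 is the helix-loop-helix factor that joins it on DNA through LMO2 and LDB1, KLF1 binds CACCC elements such as that of the adult beta-globin promoter, and NFE2 pairs with small MAF proteins at globin enhancers. GATA1, TAL1 and NFE2 also act in megakaryocytes, and GATA1 in mast cells. Erythropoietin signals through EPOR to JAK2 and STAT5 and keeps erythroid progenitors alive. SLC4A1 is the chloride-bicarbonate exchanger of the red cell membrane, ANK1 ties it to the spectrin skeleton, and RHAG is the glycoprotein of the Rh complex.

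Promoter windows (RefSeq, GRCm38.p6, 250 bases before to 50 after a transcription start) were found for 5 of the 8 genes. The windows of Klf1, Rhag, Epor and Gata1 are shown because the factors encoded by Gata1 and Klf1 recognise motifs of the kind marked in them. They lie at chr8:84901732-84902031 (Klf1, + strand), chr17:40810899-40811198 (Rhag, + strand), chr9:21963527-21963826 (Epor, - strand) and chrX:7967861-7968160 (Gata1, - strand). Each is written 5′ to 3′ in the direction of transcription, and capitals mark matches to a GATA motif (AGATAA, with T also allowed at its first base and G at its last) or a KLF motif (CCNCNCCC) on either strand.

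Klf1: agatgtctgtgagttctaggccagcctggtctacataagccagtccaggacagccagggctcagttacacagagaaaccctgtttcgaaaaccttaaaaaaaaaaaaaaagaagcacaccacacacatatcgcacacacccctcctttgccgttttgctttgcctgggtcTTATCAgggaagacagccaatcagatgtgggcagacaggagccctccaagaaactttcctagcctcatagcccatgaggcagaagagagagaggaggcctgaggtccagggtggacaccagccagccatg

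Rhag: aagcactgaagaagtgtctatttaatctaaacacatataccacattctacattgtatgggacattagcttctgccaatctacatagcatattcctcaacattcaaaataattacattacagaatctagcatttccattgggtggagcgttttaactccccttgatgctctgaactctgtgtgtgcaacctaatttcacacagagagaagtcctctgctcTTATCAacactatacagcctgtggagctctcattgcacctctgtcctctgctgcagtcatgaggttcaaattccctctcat

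Epor: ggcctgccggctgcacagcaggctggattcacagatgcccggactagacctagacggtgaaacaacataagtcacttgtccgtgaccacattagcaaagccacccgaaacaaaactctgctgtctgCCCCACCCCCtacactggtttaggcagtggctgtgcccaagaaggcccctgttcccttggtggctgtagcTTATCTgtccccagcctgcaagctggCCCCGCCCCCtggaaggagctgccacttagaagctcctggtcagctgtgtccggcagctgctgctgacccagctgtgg

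Gata1: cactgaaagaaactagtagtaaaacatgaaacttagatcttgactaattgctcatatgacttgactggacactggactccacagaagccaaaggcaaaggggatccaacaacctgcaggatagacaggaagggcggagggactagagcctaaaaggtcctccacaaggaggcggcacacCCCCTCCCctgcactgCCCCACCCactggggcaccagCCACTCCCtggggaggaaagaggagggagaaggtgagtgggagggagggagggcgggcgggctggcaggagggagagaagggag

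Of 6 windows (Tal1 has a pair of starts), 4 held the GATA motif, against 29.8% of 32817 promoter windows of the same length. These were the Klf1, Rhag and Epor windows and that of the upstream Tal1 start. The matches in Rhag, Epor and Klf1 began 31, 54 and 80 bases before the start, and that of Tal1 205 bases before it. The Gata1 window held no GATA motif and 3 KLF motif matches, which began 71, 55 and 34 bases before the start. KLF motif matches stood in 3 of the 6 windows, against 49.5% of all windows. In Epor they overlapped in pairs around 124 and 28 bases before the start. The window of the downstream Tal1 start held 4, of which 3 overlapped. Distances depend on the start used. For Klf1, Rhag, Epor and Gata1 these RefSeq starts differ from those of the GENCODE gene spans given below. The Gata1 window lies inside its span.

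A joined motif of an E-box part and a GATA site, CTG followed after 7 or 8 bases by AGATAA (T also allowed at its first base), is the kind of element that complexes of TAL1 and GATA1 bind. It was present in 2 of the 6 windows, those of Klf1 and Rhag, against 1.0% of all windows. In both it lay on the opposite strand, from 80 to 65 bases before the start in Klf1 and from 31 to 15 in Rhag, and it shares its GATA letters with the GATA matches above. The E-box CAGATG was found in 3 windows (17.2% of all), those of Klf1, Epor and the upstream Tal1 start. Neither the NF-E2 core TGANTCA (7.8% of all) nor TATAAA (13.6%) occurred in any of the 6. A match is a description of letters, and binding was not measured.

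**Figure D1:**
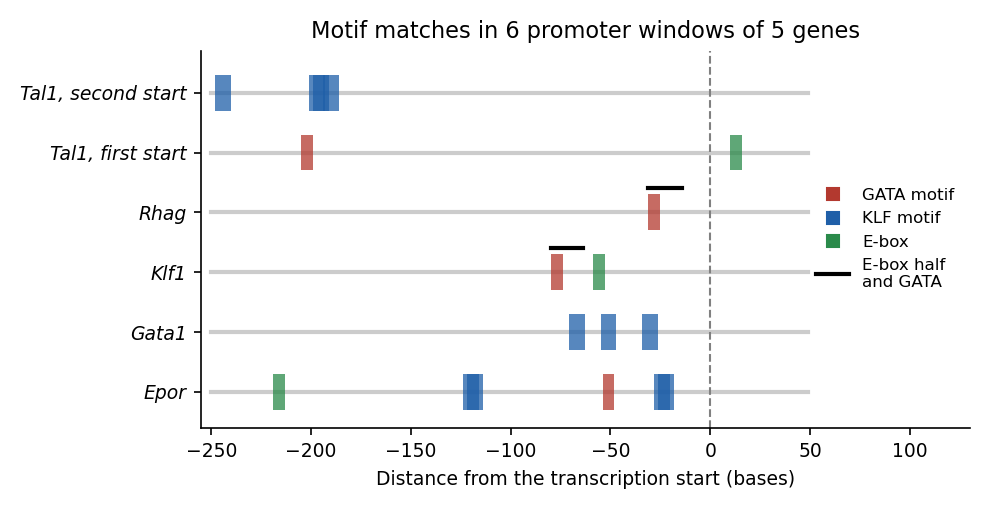
Positions of motif matches in 6 promoter windows of 5 genes, in bases from the transcription start (dashed line at 0). Boxes stand for GATA, KLF and E-box matches on either strand (darker where matches overlap) and black bars for the joined E-box and GATA element, held by the Klf1 and Rhag windows alone among the 6.

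Slc4a1, Klf1, Rhag, Nfe2, Gata1 and Epor were listed at high levels, Tal1 at a low level and Ank1 without reads. Values of genes with several annotated transcripts may not measure their expression, which was not tested. Gapdh, a gene that every cell uses, has 2 curated RefSeq transcripts and was listed at 5.20 CPM, and Actb, with 1, at 2582 CPM. E2f2 and Gypc, also with 2, were listed at 1232 and 640 CPM. Counted by curated RefSeq transcripts, the limit on genes with several transcripts applies to Tal1 (2), Nfe2 (6) and Ank1 (11). Levels are the authors' mean CPM, read counts scaled to a common library total. They include a prior count worth 0.152 CPM, which makes up much of any value under about 1 CPM. Of the 8 genes, 6 stood at or above 14.5 CPM, the upper quartile of the 19652 rows with reads, and 16.0% of all 30743 rows did so. Per kilobase of merged exons the median of the 8 genes was 171 CPM, against 0.456 CPM for the 17307 genes with reads that had an exon length. Ank1 counts as 0 in the first median, and genes without reads are left out of the second. Together the 8 genes made up 1.47% of the CPM of the table, most of it from Slc4a1 (12037 CPM). In RNA from whole liver, more erythroid cells and more RNA per erythroid cell cannot be told apart.

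Among the membrane proteins, Slc4a1 (chromosome 11, 102348824 to 102366203, - strand) was the most abundant of the 8, with a mean of 12037 CPM. Only 6 of the 30743 rows had a higher CPM. Its level per kilobase was 2461 CPM, which is 5.44 times that of Klf1, the next of the 8. Rhag (chromosome 17, 40811126 to 40840754, + strand) had 848 CPM and 363 CPM per kilobase, above 99.5% of genes with reads on either scale. The exchanger and the Rh glycoprotein differed 6.79-fold per kilobase.

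Ank1 (chromosome 8, 22974844 to 23150497, + strand) was listed at the lowest value of the table, which 11091 rows share and which stands for no reads in any of the 12 libraries. At a mean effective library of about 13129748 reads, a count of 0 allows up to 0.019 CPM, as far as counting error goes. Ankyrin's membrane partner Slc4a1 rested on about 1896454 reads in the same libraries. The skeleton that ANK1 joins was represented by Sptb (listed as Spnb1), the beta-spectrin gene, with 417 CPM, or 34.3 CPM per kilobase. Ank1 has 11 curated RefSeq transcripts and 17 GENCODE transcripts, the most of the 8 genes on both counts. Its exons share 862 bases with the antisense gene Gm15816, for which the table has no row. Whether the number of transcripts has a part in this value was not tested.

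The regulators fell into 3 abundant genes and 1 low one. Klf1 (chromosome 8, 84901928 to 84905291, + strand) led them with 692 CPM and 452.5 CPM per kilobase. Nfe2 (chromosome 15, 103248212 to 103258403, - strand) had 572 CPM, or 191 CPM per kilobase. Gata1 (chromosome X, 7959260 to 7978071, - strand) had 367 CPM, or 151 CPM per kilobase. These 3 factors stood above 98.3% to 99.3% of the rows with reads in CPM, and above 98.5% to 99.6% of genes with reads per kilobase. From Klf1 to Rhag, Nfe2, Gata1 and Epor, each level per kilobase was between 1.25 and 1.90 times the next, and whether such neighbours differ beyond the spread between livers cannot be told from a mean.

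Tal1 (chromosome 4, 115056426 to 115071755, + strand) was listed at 4.73 CPM, from about 721 reads over all libraries, or 1.08 CPM per kilobase. Epor, the gene above it in the order, had a 104 times higher level per kilobase. Tal1 stood above 65.0% of the rows with reads, and 32.4% of the rows from 1 CPM. Its close relative Lyl1, a helix-loop-helix factor of blood progenitors, had 201 CPM and 112 CPM per kilobase. Tal1 has 2 curated RefSeq transcripts, and 16.8% of its exon bases belong to a single GENCODE transcript, the smallest share of the 8 genes.

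Epor (chromosome 9, 21958897 to 21963506, - strand) was listed at 224 CPM, from about 35225 reads, and at 112.5 CPM per kilobase. It ranked sixth of the 8 genes and above 96.7% of the rows with reads in CPM. Epo, which encodes its ligand, has 2 curated transcripts and had about 3 reads in the 12 libraries. Its value may not measure expression, which was not tested.

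**Figure D2:**
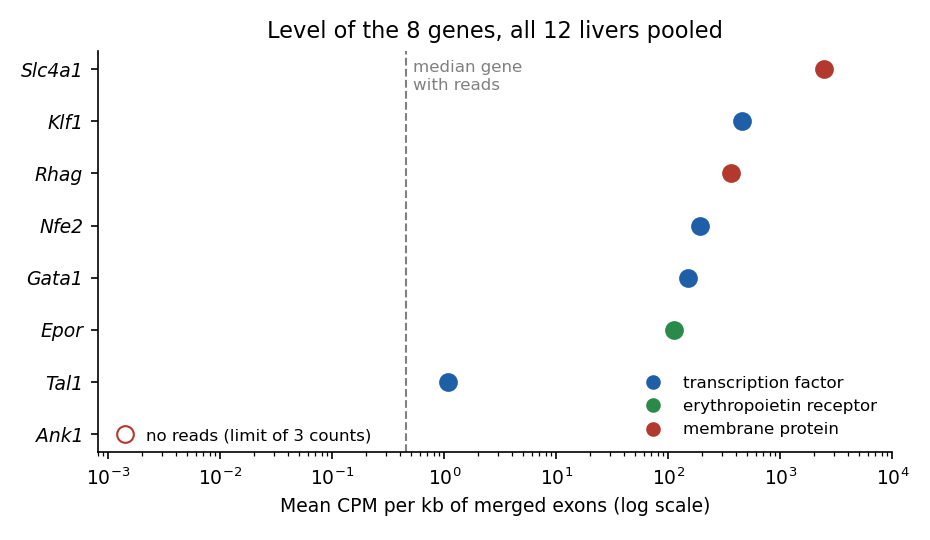
Mean level of each of the 8 genes over all 12 livers, in CPM per kilobase of merged exons (log scale), coloured by role. Slc4a1 lies at 2461, the next 5 genes between 112.5 and 452.5, Tal1 at 1.08 near the median gene with reads (0.456), and the open circle marks the limit that no reads allow for Ank1.

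The low genes were also genes with several curated RefSeq transcripts. GENCODE transcript numbers did not split the 8 genes this way. There Ank1 has 17 and Tal1 4, but Nfe2 has 10, Slc4a1 5, Gata1 and Rhag 3 each, Epor 2 and Klf1 1. All 5 of the 8 genes with 1 curated RefSeq transcript (Gata1, Klf1, Epor, Slc4a1 and Rhag) were at or above 14.5 CPM. Of the 3 genes with more, Tal1 (2 transcripts) and Ank1 (11) were below it and Nfe2 (6) was above it. Across protein-coding genes the share at or above 14.5 CPM was 30.1% of 10974 genes with 1 curated transcript and 13.8% of 7386 genes with 2 or more. It was 16.1% with 2 transcripts, 13.2% with 3, 9.8% with 4, 10.6% with 5 and 10.5% with 6 or more. The share of genes without reads was also lower with more transcripts, 24.8% with 1 and 18.3% with 2 or more. Transcript numbers come from a RefSeq annotation of GRCm38.p6, which may differ from the annotation the authors counted on, and their part in the level of Tal1 or Ank1 was not tested.

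**Figure D3:**
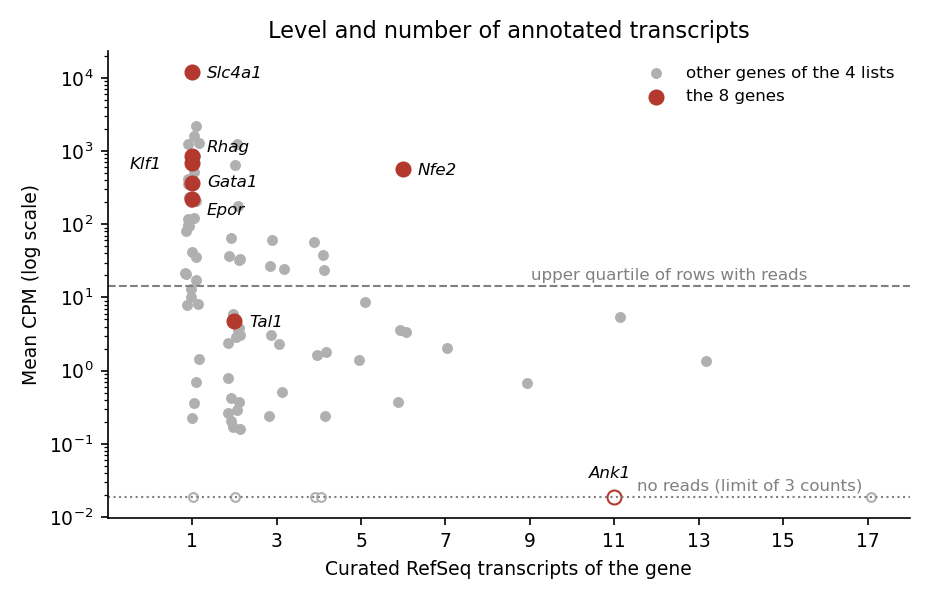
Mean CPM (log scale) of the 8 genes (red) and of 80 genes of 4 related lists (grey) against the number of curated RefSeq transcripts; open circles at 0.019 CPM had no reads, and grey points are spread sideways to separate them. The dashed line is 14.5 CPM, and the genes with 1 transcript reach highest, with Nfe2 (6 transcripts, 572 CPM) apart from the other genes with over 2.

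**Figure D4:**
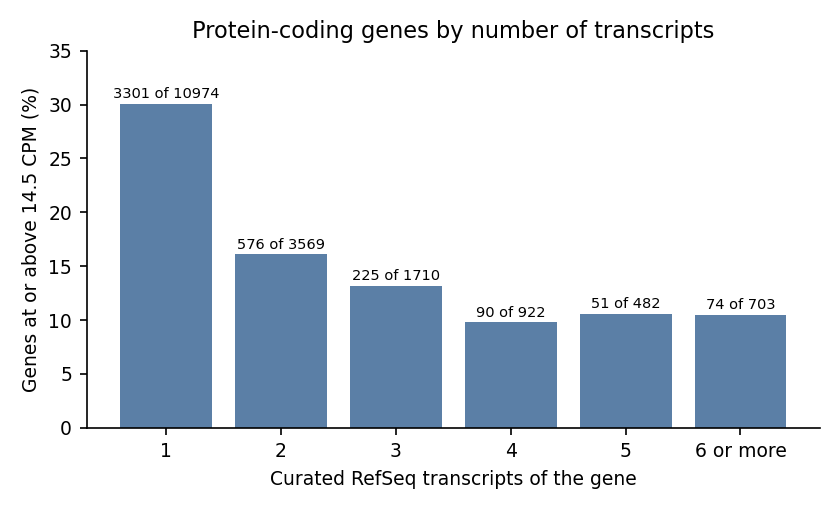
Share of protein-coding genes at or above 14.5 CPM by number of curated RefSeq transcripts, with gene numbers above the bars. The share is 30.1% with 1 transcript and between 9.8% and 16.1% with more.

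Genes known to work with the regulators were found for all 18 listed names, and 17 had reads. E2f4 and E2f2, cell cycle factors of maturing erythroblasts, and Zfpm1, the GATA1 cofactor FOG1, were highest, with 344, 252 and 228 CPM per kilobase. Mafk, which encodes a small MAF partner of NFE2, had 52.9 CPM per kilobase. Lmo2 and Ldb1, which bridge TAL1 and GATA1, had 17.4 and 5.89. Tcf3, the gene of the E proteins that pair with TAL1, had no reads and has 17 curated transcripts. The median was 5.13 CPM per kilobase, and 10 of 18 genes were at or above 14.5 CPM, against 16.0% of all rows.

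EPO signalling genes were mostly listed at low values, and their share at or above 14.5 CPM was near that of all rows. Of 14 genes, 13 had reads and 2 were at or above 14.5 CPM, against 16.0% of all rows. Of protein-coding genes with 2 or more curated transcripts, 13.8% were. The 2 genes were the feedback inhibitor gene Socs3 and the kinase gene Pim1, with 14.3 and 10.8 CPM per kilobase. Ptpn6, a phosphatase gene that acts against the receptor, had 2.14 CPM per kilobase. Jak2 had 0.703 and Stat5b 0.549 CPM per kilobase, and Kit, the stem cell factor receptor gene, had about 1 read, and Gab2 none. The median of the list, with Gab2 taken as 0, was 0.339 CPM per kilobase, against 0.456 for genes with reads. Of these 14 genes 13 have more than 1 curated transcript, among them Pim1 with 2, and Socs3 alone has 1. The low values of this list may not measure expression, which was not tested.

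Other genes of the red cell membrane and skeleton had the highest median of the 4 related lists. All 22 had reads, 17 were at or above 14.5 CPM (against 16.0% of all rows), and their median was 25.5 CPM per kilobase. Kel, a blood group protease gene, had 460 CPM per kilobase and Slc2a1, a glucose transporter gene, 359. The lowest per kilobase were Add2 (0.0363), Tspan33 (0.0513) and Dmtn (0.137), and each has 2 or more curated transcripts. In this list all 12 genes with 1 curated transcript were at or above 14.5 CPM, and 5 of 10 with more were.

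Relatives of the 8 genes in their own families were mostly listed lower. Of 26 relatives, 23 had reads and 7 were at or above 14.5 CPM, against 16.0% of all rows. Their median was 0.406 CPM per kilobase. Rhd, the Rh partner of Rhag, and Lyl1 were the highest, with 147 and 112 CPM per kilobase. Lyl1 was listed above its relative Tal1 (1.08). Gata2, which precedes Gata1 in blood progenitors, had 0.149 CPM per kilobase against 151 for Gata1. Klf6, the highest of the Klf relatives, had 18.2 against 452.5 for Klf1. Nfe2l2 had 46.6 against 191 for Nfe2, and Slc4a2 had 7.77 against 2461 for Slc4a1. Ank2 and Ank3, the other ankyrin genes, were listed at 0.0518 and 0.0194 CPM per kilobase, above Ank1, which had no reads. Gata3 and Gata5 had no reads. Gata2, Nfe2l2 and Slc4a2 have 2 curated transcripts each, Gata3 and Ank2 4 and Ank3 9, while Gata1, Klf1, Slc4a1, Klf6, Gata5, Rhd and Lyl1 have 1. Nfe2, the higher of its pair, has 6, more than Nfe2l2. The differences from Gata1, Slc4a1, Nfe2, Tal1 and Ank1 are between listed values and may not be differences in expression.

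**Figure D5:**
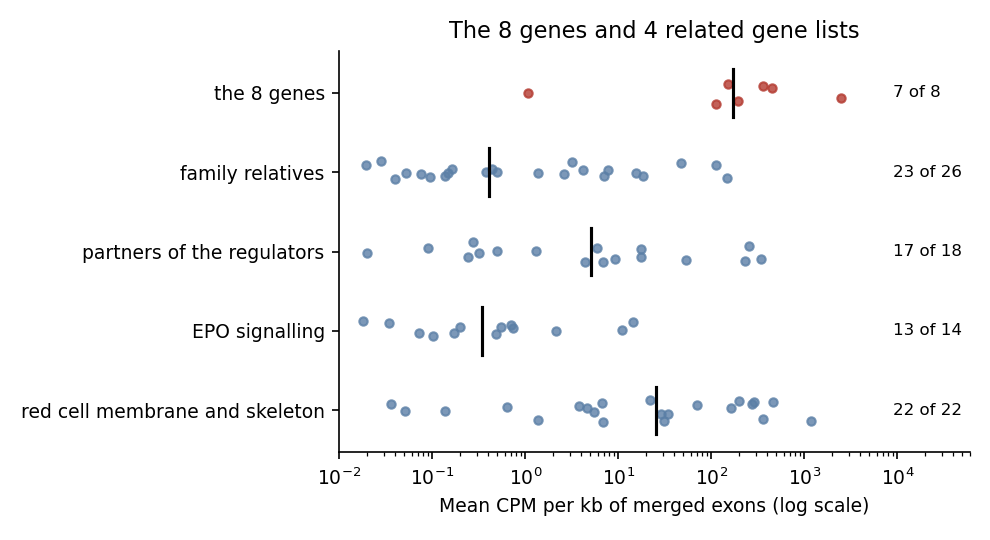
Level of each gene with reads in CPM per kilobase of merged exons (log scale) for the 8 genes and 4 related lists, with the list median (genes without reads taken as 0) as a black bar and the number of genes with reads at the right; vertical scatter only separates points. The median lies at 171 for the 8 genes, 25.5 for membrane and skeleton genes, 5.13 for partners, 0.406 for relatives and 0.339 for EPO signalling.

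Markers of the cells in the tissue were present beside the 8 genes. Of 10 erythroid markers 6 were found by symbol. The globin genes Hba-a2, Hbb-bs (listed as Beta-s) and Hbb-b1 had 49707.5, 44564 and 24904 CPM, and the hepatocyte genes Alb and Afp 63314 and 54525. Of the megakaryocyte markers, 3 of 6 were at or above 14.5 CPM (Ppbp 251, Pf4 150 and Gp9 44.3 CPM). Of the 5 mast cell and basophil markers none reached it, Cpa3 being highest with 8.26 CPM and Fcer1a without reads. The share of Gata1, Nfe2 and Tal1 RNA that came from megakaryocytes was not tested.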

How the data were processed

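Reads were checked for quality and aligned to mm10 with Subread 1.3.6-p1, per the labels and the study's methods. The processing notes also name cutadapt 1.2.1, and biomaRt served for annotation. How reads were counted per gene, on which annotation release and with what normalization is not given in the sources used here. The authors compared the diets with edgeR and deposited fold changes, p-values and adjusted p-values for 2 dispersion settings. Those columns hold the authors' own comparison and were not used. The column used holds the deposited average log2 CPM, 1 value per gene symbol over all 12 libraries. Because the planned test of the diets needs counts of single livers, it was not run.

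CPM was taken as 2 to the power of that value. The lowest value, shared by 11091 rows, was read as no reads. The next values lay 0.0589 higher on the log2 scale, the step that 1 read in 12 libraries gives with a prior count of 2 (0.0589), and not with 1 (0.1155) or 0.25 (0.415). With that prior count the lowest value corresponds to a mean effective library of 13129748 reads, and it gave the approximate reads of each gene. CPM above the lowest value summed to 1000487. The limit for a count of 0 uses 3 counts over all libraries. Single reads are not independent molecules, so it covers counting error only.

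Exon lengths and gene positions were read from the GENCODE M21 annotation (GRCm38, equal to mm10). Of the 30743 symbols, 22879 had an entry there, 21063 of them under the same symbol and the rest through RefSeq synonyms. Motifs were searched on both strands in RefSeq promoter windows. Values per kilobase set genes with shared or overlapping exons side by side as the authors counted them. The functions were tested on simulated data. Python 3.11.15, numpy 2.4.6, pandas 2.3.3 and matplotlib 3.10.9 were used.

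The 8 genes and the lists were chosen with earlier results of these data known. By rule all 8 genes were named, with the 3 highest and the lowest CPM of each list, apart from a few list genes that are not reported here. Other list genes, the use of RefSeq transcript numbers, and Gapdh and Actb were chosen after values were seen.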

Additional observations from a re-analysis of the deposited data

How the results depend on the processing

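Both columns of average log2 CPM, 1 for each dispersion, held equal values in all 30743 rows, so every level was the same with either. The order of the 8 genes by CPM changed in 2 places per kilobase: 6 of the 8 kept their rank with merged exons, with the longest transcript and with the longest coding transcript, and Klf1 and Rhag changed places. Ranked among all rows 7 of the 8 genes, Tal1 included, were at or above the upper quartile, and 6 were among rows from 1 CPM and per kilobase. A prior count of 1 would give a mean library of 6564874 reads and a prior count of 0.25 one of 1641218. Looser motif letters (CACCC for KLF, TGANNCA for NF-E2) raised the windows with a match from 3 to 5 (57.5% of all windows) and from 0 to 2 (42.5%), GATA alone gave 5 instead of 4 (57.9%) and CANNTG for the E-box 4 instead of 3 (72.3%). Counting predicted RefSeq transcripts too, a choice made after seeing the data, the share of genes at or above 14.5 CPM was 28.0% with 1 transcript, 29.3% with 2 and 21.2% with 2 or more, and the median turned, from 0.822 CPM with 1 and 0.543 with 2 or more curated transcripts to 0.367 and 0.781. No paired analysis was possible because only a mean over all livers was used. The test of the diets, other normalizations, low count filters and leaving out livers were not run for the same reason. No spread between livers stands behind any level here.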

Other observations

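Low values also fell on marker and control genes with several curated RefSeq transcripts. Alas2, the erythroid enzyme of heme synthesis, was listed at 0.704 CPM and Serpina1a, a hepatocyte protease inhibitor gene, at 0.184 CPM, and each has 2 curated transcripts. Gapdh, also with 2, was listed at 5.20 CPM and Actb, with 1, at 2582 CPM. Over the 80 genes of the 4 lists, 23 of 32 genes with 1 curated transcript (71.9%) and 13 of 48 with 2 or more (27.1%) were at or above 14.5 CPM. Low values were not limited to such genes. None of the 4 mast cell and basophil markers with 1 curated transcript and neither of the 2 such B lineage markers reached 14.5 CPM, and Csf1r, a macrophage marker with 1, was listed at 0.684 CPM. The 5 granulocyte markers, each with 1 curated transcript, were all above it, from 38.3 CPM for Prtn3 to 759 CPM for Mpo. Of the macrophage markers, C1qa (82.6 CPM) and Vcam1 (290 CPM) were above it, Cd68 had about 9 reads and Adgre1 (listed as Emr1) had none. All 4 B lineage markers lay between 0.394 and 14.3 CPM. These are descriptions over genes, which are not independent replicates, and how reads shared by several transcripts were counted was not tested.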
